A study of Homo sapiens with 2 samples.

Results

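Retinoic acid receptors and the proteins that bind, make and degrade retinoic acid were described in 2 transfected clones of SK-N-MC cells, a human tumour line that the submitters call a neuroepithelioma and that is today counted among Ewing tumours. The 10 genes were chosen by function, as receptors, carriers and enzymes of retinoic acid, but selected on sight of their signals on these same 2 arrays, RARG's lower signal in the clone among them. They comprise RARA, RARB, RARG, RXRA, RXRB, RXRG, CRABP1, CRABP2, CYP26B1 and ALDH1A2. All probe sets annotated to only 1 of these genes were taken, which gave 24 of 54675 probe sets and 9 of 19775 named genes. CRABP1 is not analysed here, because no probe set was annotated to it alone. The values below therefore describe these genes and test nothing about how they were chosen.

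The clone had been transfected with pCMV-Script, a mammalian expression plasmid, carrying the human melanotransferrin cDNA, and is labelled hyperexpression clone 4. The control had been transfected with the same plasmid without the insert, and is labelled vector control 1. Both lines were SK-N-MC cells transfected by Lipofectin and kept as stable transfectants, and neither the labels nor the series text names a retinoid treatment. Each group held 1 clone on 1 Affymetrix U133 Plus 2.0 array, so clone and insert cannot be told apart, and no value has a replicate SD, a test or a p-value.

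Retinoic acid is made from vitamin A and acts in the nucleus. Retinol is oxidised to retinaldehyde and then, by retinaldehyde dehydrogenases such as ALDH1A2, to retinoic acid, which CRABP proteins carry through the cell and CYP26 enzymes degrade. The retinoic acid receptors RARA, RARB and RARG pair with the retinoid X receptors RXRA, RXRB and RXRG on DNA. Without ligand the pair recruits corepressors, and with ligand coactivators replace them. In neural crest and neuroectodermal tumour cells retinoic acid is known as an inducer of differentiation.

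Such pairs are known to bind direct repeats of a 6-base element. RefSeq promoter windows, from 250 bases before to 50 bases after an annotated start, were searched on both strands for 2 copies, in the same orientation, of AGGTCA or of its variants with letters AGTTCA or also GGGTCA or else GGTTCA, with 1 to 5 bases between them. The 10 genes had 18 windows in the table (GRCh38.p14), and 1 of these 18 held a match. Among all 34943 windows, 143 (0.409%) held a match at any of these spacings and 31 (0.0887%) held one with 5 bases between the elements. The match lay in RARB, from 53 to 37 bases before one of its starts, at chr3:25428210-25428226 on the gene's strand. It is printed below in capitals because it is the textbook retinoic acid response element of this gene, and the RARG window, on the minus strand, is printed because RARG showed the largest difference of the measured members. The RARG window, the only one searched for this gene, held no copy of the 6-base element on either strand. RARG sequence outside it was not searched. A match is a description of letters and shows no binding in these cells.
RARB, chr3:25428013-25428312, plus strand: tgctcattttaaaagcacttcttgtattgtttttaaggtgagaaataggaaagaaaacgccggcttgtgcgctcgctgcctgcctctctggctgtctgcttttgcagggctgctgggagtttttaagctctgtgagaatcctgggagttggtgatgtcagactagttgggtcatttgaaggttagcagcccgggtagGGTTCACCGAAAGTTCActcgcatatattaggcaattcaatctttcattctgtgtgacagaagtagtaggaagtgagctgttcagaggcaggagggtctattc
RARG, chr12:53232160-53232459, minus strand: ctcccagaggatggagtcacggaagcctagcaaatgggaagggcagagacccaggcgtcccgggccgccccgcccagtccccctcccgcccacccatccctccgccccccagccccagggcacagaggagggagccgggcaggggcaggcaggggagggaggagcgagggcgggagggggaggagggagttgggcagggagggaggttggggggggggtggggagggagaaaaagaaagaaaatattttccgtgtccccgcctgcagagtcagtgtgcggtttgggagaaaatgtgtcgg

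The signals are deposited linear intensities, scaled so that both arrays have the same trimmed mean. Probe sets for smell receptors, bitter taste receptors and keratin-associated proteins of hair, which this cell type should not use, numbered 189. Their 90th percentile over both arrays together, a floor of 208, marked signals that could not be told from background. Taken on each array alone it was 170 in the clone and 220 in the control. The floor of 208 was exceeded by 47.3% of probe sets on the clone array and 50.8% on the control array. The transfected gene, MELTF, read 4449 in the clone and 18.4 in the vector control on the probe set annotated to the transcript of the insert. Its other 3 probe sets did not show this: 1 read 209 in the clone and 246 in the control, and the remaining ones lay under the floor in both lines. Of 11 named Ewing tumour markers 10 were above the floor on both arrays. CD99 (32239 in the clone and 31465 in the control), NKX2-2 (12438 and 11550) and FLI1 (2671 and 2574) differed little. STEAP1 (33978 and 24514), PRKCB (6473 and 4365.5) and LIPI (4896 and 2892) were higher in the clone. EWSR1 (7016 and 7933) and XG (1164 and 1200) were lower. Summed over the Ewing list, the signal was 168304 in the clone and 148489 in the control. Below the floor on both arrays were 7 of 8 hepatocyte, 6 of 8 epithelial, 5 of 8 endothelial, 4 of 6 leukocyte, 4 of 7 melanocyte and 5 of 7 sympathetic neuron markers, and 1 of 10 fibroblast markers. Their summed signals were 1080 in the clone and 1078 in the control for hepatocytes, 10944 and 11000 for epithelium, 1418 and 1935 for endothelium, 14974 and 16998 for leukocytes, 1067 and 921 for melanocytes, 451 and 983 for sympathetic neurons and 64493 and 72014 for fibroblasts. What part other cell types had in the values below was not tested. In RNA from a whole culture, fewer cells with a transcript and less of it per cell cannot be told apart.

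Among the members RARG was lower in the clone on both probe sets above the floor, and RARA was lower mainly on its brightest probe set. RXRA was close to the middle of all genes. RXRB was so on its brightest probe set, while its next was lower in the clone. CRABP2 and CYP26B1 were somewhat higher, and RARB, RXRG and ALDH1A2 were at or below the floor. Of the 9 genes, 6 were above the floor on both arrays by their brightest probe set and RARB in the control alone, which makes 7 measured genes. By a fixed size of 2-fold, 1 of these 7 genes was lower in the clone and 0 were higher. Among all 12663 measured genes, 240 (1.9%) were at least 2-fold lower and 153 (1.21%) at least 2-fold higher. That split depends on how the arrays are scaled: it was 165 lower and 174 higher after a signal-dependent loess, 49 and 893 when the arrays were centred on the hybridisation spikes, and 1574 and 19 when they were centred on the poly-A spikes. The 18 hybridisation spikes were all lower on the clone array (median ratio 0.706) and the 24 poly-A spikes all higher (1.53), and these scalings moved the median log2 ratio of all genes to 0.47 and -0.58. Directions are therefore given relative to the other genes, whose median as deposited was -0.022.

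**Figure D1:**
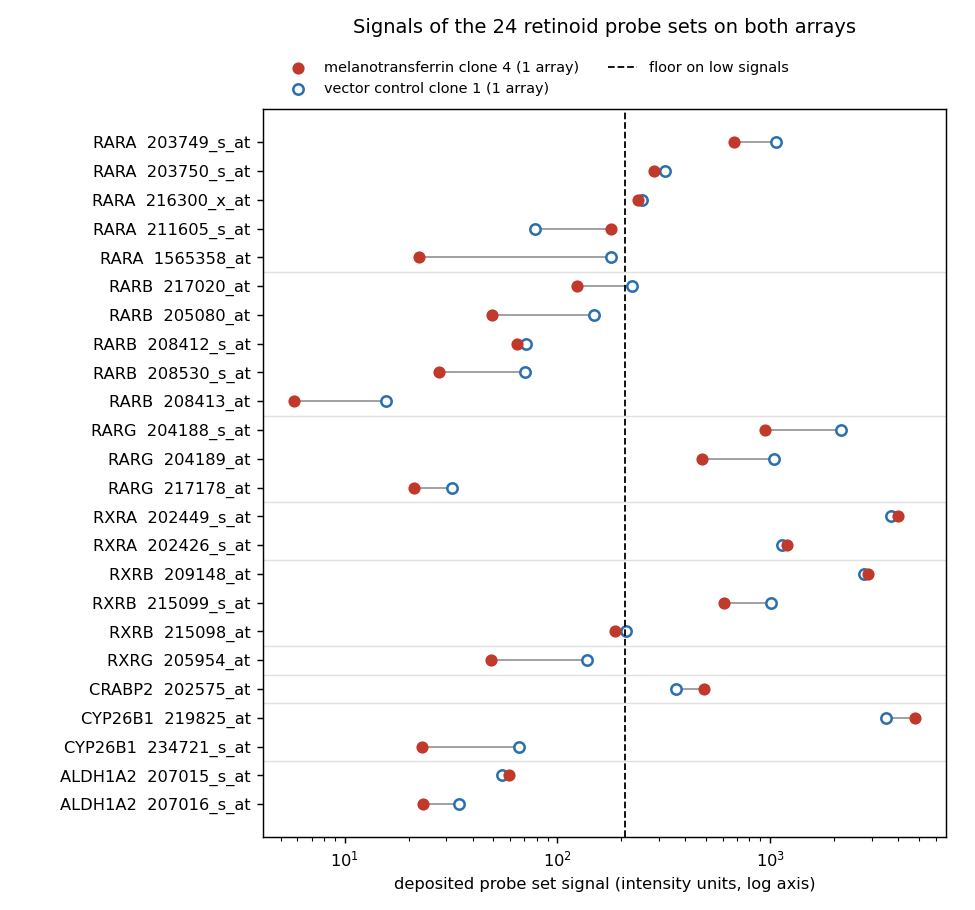
Deposited signal (intensity units, log axis) of each of the 24 probe sets in the melanotransferrin clone (filled red) and in the vector control (open blue), 1 array each, with the floor of 208 as a dashed line. Both brighter RARG probe sets lie to the left in the clone, while all RARB, RXRG and ALDH1A2 signals lie left of the floor except 1 RARB signal in the control.

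RARG, the retinoic acid receptor encoded on chromosome 12 and known for roles in skin and cartilage, read 947 in the clone and 2151 in the vector control on probe set 204188_s_at. On 204189_at it read 477 in the clone and 1040.4 in the control. Both probe sets showed the lower signal in the clone, 2.27-fold and 2.18-fold, with log2 ratios of -1.18 and -1.13. Their log2 ratios differed by 0.059, whereas probe sets of the same gene differed by a median of 0.41 over the 5387 genes that had at least 2 probe sets measured on both arrays. The pooled SD within genes was 0.35, a spread that covers disagreement between probe sets and not variation between cultures or clones. Of these 5387 genes, 4 (0.0743%) were as deposited at least 2-fold lower on all such probe sets, RARG among them. At least 2-fold higher on all of them were 5 (0.0928%). RARG was selected with these values known, so its place among them and the agreement of its probe sets are a description. The remaining RARG probe set, 217178_at, read 21.2 in the clone and 31.9 in the control, below the floor on both arrays. Relative to the median of all genes in the same setting, the log2 ratio of RARG lay between -1.21 and -1.05 as deposited and in 12 alternatives of scaling, floor and probe set choice. The 604 genes of chromosome 12 above the floor on both arrays had a median log2 ratio of -0.0069 and quartiles of -0.21 and 0.18.

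RARA, the most widely expressed of the retinoic acid receptors, whose gene is fused to others in acute promyelocytic leukaemia, had probe sets that disagreed. On 203749_s_at it read 678 in the clone and 1063 in the vector control, a log2 ratio of -0.65. On 203750_s_at it read 283 in the clone and 320 in the control, and on 216300_x_at 240 and 250.1, log2 ratios of -0.18 and -0.060. The lower signal in the clone thus stood out on the brightest probe set alone, and the range of 0.59 among the 3 was equalled or exceeded by 32.0% of the genes with several measured probe sets. As the median of its measured probe sets the RARA log2 ratio was -0.18. The other 2 probe sets were below the floor on both arrays and ran in opposite directions, at 179 in the clone and 78.8 in the control, and at 22.4 in the clone and 179 in the control.

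RARB, a retinoic acid receptor that retinoic acid itself induces through the element printed above and that is often silenced in tumours, was near background in both lines. Its brightest probe set, 217020_at, read 123 in the clone and 224 in the vector control, just above the floor in the control and below it in the clone. The clone signal was therefore at least 1.07-fold lower, a bound that says little. The other 4 RARB probe sets read 49.4, 64.5, 27.7 and 5.8 in the clone, against 149, 71.3, 70.2 and 15.6 in the control. All 5 were lower in the clone, but below the floor the arrays differed in general: over 17101 named probe sets under the floor in both lines the median log2 ratio was -0.41, and the background probe sets had medians of 43.0 in the clone and 67.4 in the control. Dim signals carried wide scatter, with 95% of these log2 ratios between -3.67 and 2.65. No level of RARB mRNA in the clone could be told from background at this sensitivity.

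The retinoid X receptors are the shared partners of the retinoic acid receptors and of several other nuclear receptors. RXRA read 3982 in the clone and 3697 in the vector control on 202449_s_at, and 1206 in the clone and 1138 in the control on 202426_s_at. Both RXRA probe sets differed little between the lines, with log2 ratios of 0.11 and 0.084. RXRA lies on chromosome 9, where 445 genes above the floor on both arrays had a median log2 ratio of 0.48 and quartiles of 0.21 and 0.70, so its value lay under the lower quartile of its chromosome. The other members lie on chromosomes 1, 2, 3, 6, 12, 15 and 17, whose medians ran from -0.041 to 0.017.

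RXRB gave different answers on its probe sets. On 209148_at it read 2896 in the clone and 2761 in the vector control, a log2 ratio of 0.069. On 215099_s_at it read 607 in the clone and 1014 in the control, a log2 ratio of -0.74. The difference of 0.81 between these probe sets exceeded the pooled SD of 0.35 and was equalled or exceeded in 17.8% of genes with several measured probe sets. A further probe set, 215098_at, read 187 in the clone and 211 in the control, on either side of the floor. Whether these probe sets read different RXRB transcripts was not tested. RXRG, the most restricted of the RXRs, read 48.7 in the clone and 138 in the control on its only probe set, both below the floor.

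CRABP2, which delivers retinoic acid to the receptors in the nucleus, read 489 in the clone and 360.2 in the vector control on its only probe set. That is 1.36-fold higher in the clone, a log2 ratio of 0.44, from signals near the floor. CYP26B1, which oxidises retinoic acid to inactive products, read 4784 in the clone and 3496 in the control on 219825_at, 1.37-fold higher in the clone with a log2 ratio of 0.45. Its second probe set, 234721_s_at, read 23.0 in the clone and 65.8 in the control, below the floor on both arrays, so the higher value rests on 1 probe set. As deposited neither gene reached 1.5-fold, a size that 8.44% of all measured genes passed as lower and 5.38% as higher in the clone. With the arrays centred on the hybridisation spikes their log2 ratios were 0.94 and 0.95, beside a median of 0.47 over all genes. Centred on the poly-A spikes they were -0.17 and -0.16, beside -0.58. ALDH1A2, the main retinaldehyde dehydrogenase of the embryo, read 59.3 and 23.4 in the clone, against 54.9 and 34.4 in the control. No ALDH1A2 signal could be told from background in either line.

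Signals of like brightness varied between the arrays by more than most of these differences. Among 4205 named probe sets measured in both lines with a mean signal of 1000 to 2000, 95% of log2 ratios lay between -0.74 and 0.76, and among 4194 with a mean signal of 500 to 1000, between -0.98 and 0.91. Of the 11 member probe sets measured in both lines, 9 lay inside the central 95% of their brightness band. The other 2 were both RARG probe sets. Since the members were chosen with these values known, these positions are a description.

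**Figure D2:**
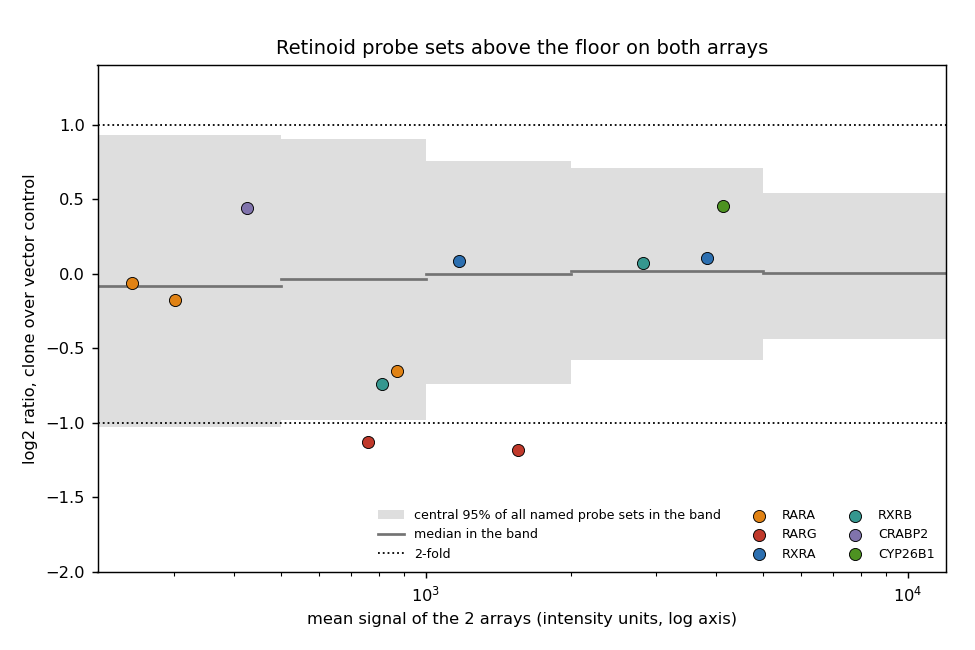
Log2 ratio of the melanotransferrin clone over the vector control against the mean signal of the 2 arrays (intensity units, log axis) for the 11 member probe sets measured in both lines. Grey bands hold the central 95% of all named probe sets of that brightness, with their median as a line, and the RARG points at -1.18 and -1.13 lie below their bands.

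**Figure D3:**
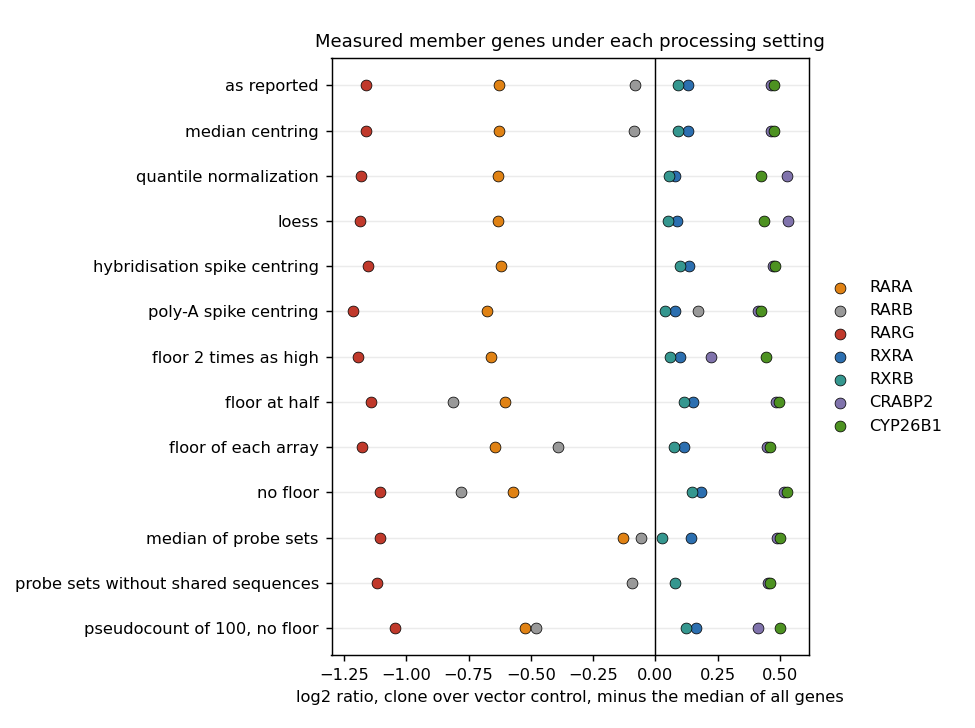
Log2 ratio of the clone over the vector control for the 7 measured members, minus the median of all genes in the same setting, under the deposited scaling and up to 12 alternatives (12 settings in all gave a value for RARA and RXRA, 9 for RARB). RARG lies between -1.21 and -1.05 throughout, RARB moves most with the floor, and RXRA, RXRB, CRABP2 and CYP26B1 lie right of 0 on this relative scale wherever they have a value.

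Genes around the receptors were taken from 4 lists. These held other retinoid handling genes, known retinoid targets, other partners of the RXRs with related nuclear receptors, and corepressors and coactivators. Of 118 genes on these lists 100 were represented by a probe set of their own and 64 of these were measured. At least 2-fold lower in the clone were 4 of 64 (6.25%), and 0 were at least 2-fold higher, beside 1.9% and 1.21% of all measured genes. With hybridisation spike centring the split was 0 lower and 5 higher of 63, beside 0.39% and 7.1% of all measured genes. With poly-A spike centring it was 14 lower and 0 higher of 68, beside 11.9% and 0.14%. The median log2 ratio of the 64 was -0.031, beside -0.022 for all measured genes. These counts are a description of the lists and were not tested.

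Retinoid handling showed small differences in both directions. Of 37 listed genes 14 were measured, with 0 past 2-fold in either direction and a median log2 ratio of -0.11, which was above the median of all genes in 2 of 13 settings and below it in 11. ALDH1A1, another retinaldehyde dehydrogenase, read 1016 in the clone and 588 in the vector control, 1.73-fold higher in the clone on its only probe set. It lies on chromosome 9, whose upper quartile of 0.70 its log2 ratio of 0.79 exceeded. DHRS3, which reduces retinaldehyde back to retinol and is itself induced by retinoic acid, read 438 in the clone and 733 in the control, 1.67-fold lower. RETSAT, retinol saturase, read 609 in the clone and 993 in the control, 1.63-fold lower, with a log2 ratio of -0.28 on its second measured probe set. RDH13, a mitochondrial short-chain dehydrogenase, read 1436 in the clone and 938 in the control, 1.53-fold higher, while its 4 measured probe sets ranged from -0.25 to 0.61 with a median of -0.0084. RBP7, a cellular retinol-binding protein, read 319 in the clone and 82.0 in the control, at least 1.53-fold higher since the control was below the floor.

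The brightest genes of that list differed less. RDH10, which oxidises retinol to retinaldehyde, read 8511 in the clone and 11091 in the vector control, a log2 ratio of -0.38, and its 3 measured probe sets ranged from -1.03 to -0.039. FABP5, a fatty acid-binding protein that can also carry retinoic acid, read 11402 in the clone and 12357 in the control. ADH5, an alcohol dehydrogenase, read 8962 in the clone and 8222 in the control, a log2 ratio of 0.12, while its other measured probe set gave -0.20 and the median of both was -0.038. CYP26A1, a relative of CYP26B1 that retinoic acid strongly induces, read 12.4 in the clone and 47.7 in the control, below the floor on both arrays, and was picked for mention after its values were seen.

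Known retinoid targets did not move one way. Of 42 listed genes 21 were measured. Among these 2 (9.52%) were at least 2-fold lower in the clone and 0 at least 2-fold higher. Over all measured genes the shares were 1.9% and 1.21%. The list's median log2 ratio was -0.13, below that of all genes in all 13 settings. HOXD4, a homeobox gene with a known retinoic acid response element, read 241 in the clone and 523 in the vector control, 2.17-fold lower on the only 1 of its 2 probe sets that was measured in both lines. NEDD9, an adhesion scaffold protein, read 183 in the clone and 483 in the control, at least 2.32-fold lower, and none of its 5 probe sets was measured in both lines. As the median of its bounds the log2 ratio of NEDD9 was -0.46, not past 2-fold. HOXB1, another homeobox target, read 98.5 in the clone and 349 in the control, at least 1.68-fold lower. Neither of its 2 probe sets was measured in both lines. DHRS3, described above as 1.67-fold lower, is also on this list. NTRK2, the receptor for the neurotrophin BDNF, read 205 in the clone and 347 in the control. That is at least 1.67-fold lower with the clone signal just under the floor, and none of its 6 probe sets was measured in both lines. With each array's own floor NEDD9 and NTRK2 were above it in both lines, with log2 ratios of -1.40 and -0.76. Of the measured targets 5 were above the floor in the control alone and 1 in the clone alone. Over all measured genes these counts were 1426 and 442, so such bounds pointed mostly to the control on these arrays.

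Other targets were higher or nearly level. ZNF503, a zinc finger protein, read 977 in the clone and 647 in the vector control. That is 1.51-fold higher on the only 1 of its 4 probe sets that was measured in both lines. The bright homeobox cofactors MEIS1 and MEIS2 had log2 ratios of 0.26 and 0.19, at 14612 in the clone and 12217 in the control for MEIS1, and 5457 and 4795 for MEIS2. The 2 measured probe sets of MEIS1 ranged from 0.0011 to 0.26. LAMB1, a laminin chain that retinoic acid induces in embryonal carcinoma cells, read 8244 in the clone and 6118 in the control, but its 2 probe sets ranged from -0.088 to 0.43. As deposited 13 of the 21 measured targets lay below a log2 ratio of 0 and 8 above it, beside 52.8% of all measured genes below it. The spike scalings moved the list's median to 0.37 and -0.72. On probe sets without shared sequences it was -0.49, or -0.48 relative to all genes, against -0.11 relative to all genes as deposited.

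The list of other RXR partners and related nuclear receptors lay mostly above the middle of all genes. Of 18 listed genes 11 were measured, with 0 past 2-fold in either direction. A log2 ratio above 0 was seen for 8 and below it for 3, beside 52.8% of all measured genes below 0. The median of 0.33 stayed above that of all genes by 0.12 to 0.37 in all 13 settings, and below 0 only with poly-A spike centring, at -0.28. NR4A1, an orphan receptor induced by many stimuli, read 666 in the clone and 430.4 in the vector control. That is 1.55-fold higher on the only 1 of its 3 probe sets that was measured in both lines. NR2C2 and NR2C1, orphan receptors that bind similar repeats, read 4281 and 2445 in the clone, against 3164 and 1884 in the control, on their brightest probe sets. As the median of their probe sets, 1 bound for NR2C2 included, both turned below 0, with log2 ratios of -0.26 for NR2C2 and -0.054 for NR2C1, and the 4 measured probe sets of NR2C1 ranged from -0.15 to 0.38. NR2F1, a COUP transcription factor that competes with retinoid receptors for DNA, read 5110.1 in the clone and 5973 in the control.

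Of 26 corepressors and coactivators 21 were measured. Their median log2 ratio of -0.11 lay above the median of all genes in 2 of 13 settings. At least 2-fold lower in the clone were 2 of the 21 (9.52%), beside 1.9% of all measured genes. Both genes are known as fusion partners of RARA in acute promyelocytic leukaemia. PML, the organiser of nuclear bodies, read 285 in the clone and 612 in the vector control, 2.15-fold lower on the only 1 of its 10 probe sets that was measured in both lines. As the median of its probe sets, bounds included, its log2 ratio was -0.15 and no longer past 2-fold. ZBTB16, a zinc finger repressor, read 219 in the clone and 454 in the control, 2.07-fold lower on its only probe set and close to the floor in the clone. With the floor set 2 times as high, 0 of the 49 measured genes of the 4 lists were 2-fold lower, beside 0.47% of all measured genes. The brightest coregulators differed little on their brightest probe sets: PRMT1, an arginine methyltransferase, read 26651 in the clone and 31472 in the control, TBL1XR1, a corepressor subunit, 14620 and 14405, and CREBBP, a histone acetyltransferase, 7784 and 7639. Over the 3 measured probe sets of CREBBP the log2 ratios ran from -0.91 to 0.027, the brightest being the highest. Over the 5 of TBL1XR1 they ran from -0.54 to 0.10, on both sides of the brightest at 0.021. PRMT1 had only 1 probe set measured in both lines. As the median of probe sets CREBBP stood at -0.33.

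**Figure D4:**
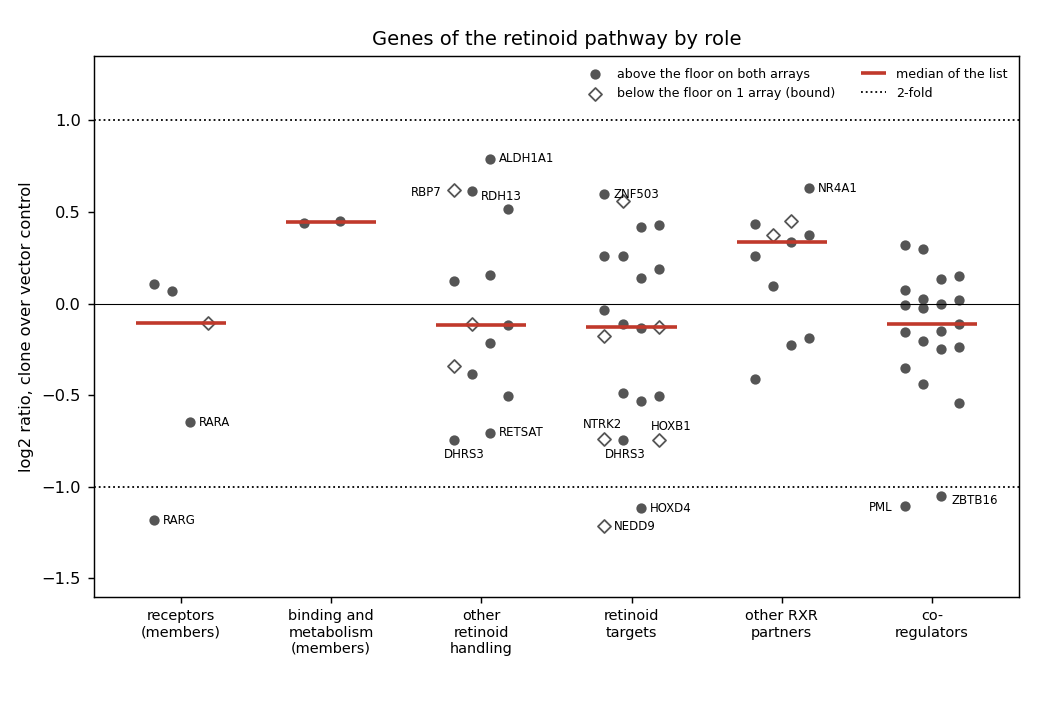
Log2 ratio of the melanotransferrin clone over the vector control for each measured gene, by role, with filled circles for genes above the floor on both arrays, open diamonds for bounds, red bars for list medians and dotted lines at 2-fold. Genes at least 1.5-fold apart are named. RARG, HOXD4, NEDD9, PML and ZBTB16 lie below the lower dotted line and no gene lies above the upper one. With hybridisation spike centring 0 of 63 measured genes of the 4 lists were lower and 5 higher, beside 0.39% and 7.1% of all measured genes.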

How the data were processed

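Total RNA from 1 SK-N-MC clone expressing human melanotransferrin and 1 vector control clone was read on U133 Plus 2.0 arrays, per the labels and the series text. The deposited values are linear intensity values, 1 per probe set and array. GCOS 1.3 was used, per the submitters' processing notes, while the algorithm, the scaling target and any detection call are stated nowhere in the labels used. Trimmed by 2% at each end, the mean intensity was 1000.07 on the clone array and 1000.29 on the control array, so a change shared by most transcripts cannot be seen.

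Probe sets were named from the platform annotation of 2016: 41097 had 1 gene, 1801 several and 11777 none here. Symbols were updated through the RefSeq table of GRCh38.p14, which matched 41043. Its promoter windows matched all 10 genes, and no protein sequences were used. For each gene the brightest probe set, by mean signal, was used. A signal under the floor of 208 on 1 array was set to the floor, so the ratio is a bound, and a gene under it on both arrays was not measured. With 1 array per group no test was possible, and having 2 arrays limits how precise any value is.

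The members and lists were chosen with earlier results of these data known. The text gives all member probe sets, and of the other lists each gene at least 1.5-fold apart and the 3 with the highest mean signal. 13 alternatives changed the scaling, the floor, the choice of probe set, the pseudocount or the fold counted. The steps were tested on simulated data and used matplotlib 3.10.9, statsmodels 0.14.6, pandas 2.3.3, numpy 2.4.6 and Python 3.11.15.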

Additional observations from a re-analysis of the deposited data

How the results depend on the processing

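The log2 ratio of RARG was below 0 in all 13 settings, from -1.79 to -0.68. It was -0.68 with hybridisation spike centring and -1.79 with poly-A spike centring. The count of member genes at least 2-fold lower was 1 of 7 as deposited (1.9% of all genes) and 0 of 6 with hybridisation spike centring (0.39%). It was 2 of 7 with poly-A spike centring (11.9%), 2 of 9 with no floor (17.7%) and 2 of 7 at 1.5-fold (8.44%). The gene beside RARG was RARA with poly-A spike centring and at 1.5-fold, and RXRG, at -1.50 on background signals, with no floor. No member was 2-fold higher in any setting. For the 4 pathway lists 4 of 64 measured genes were at least 2-fold lower as deposited, beside 1.9% of all measured genes. The count was 2 of 63 with quantile normalization (1.47% of all genes) and 2 of 64 as the median of probe sets (1.39%). It was 0 of 63 with hybridisation spike centring (0.39%) and 14 of 68 with poly-A spike centring (11.9%). With the floor 2 times as high it was 0 of 49 (0.47%), and with the floor lowered to 104 it was 7 of 80 (6.78%). With no floor it was 22 of 100 (17.7%), and at 1.5-fold 8 of 64 (8.44%). At least 2-fold higher were 0 of 64 as deposited (1.21% of all genes) and 5 of 63 with hybridisation spike centring (7.1%). The count was 3 of 80 with the floor lowered to 104 (2.23%) and 16 of 100 with no floor (7.89%). With a pseudocount of 100 and no floor it was 3 of 100 (1.365%), and at 1.5-fold 5 of 64 (5.38%). The counts over all measured genes also moved with the floor. With no floor 3493 of 19775 were lower and 1561 higher. With the floor lowered to 104 these were 1065 and 350 of 15711, and with it 2 times as high 47 and 71 of 10105. The lists' median log2 ratio was 0.48 with hybridisation spike centring and -0.59 with poly-A spike centring. The genes that lost 2-fold were HOXD4, at -0.996, and ZBTB16, at -0.91, with quantile normalization, and PML and NEDD9 as the median of probe sets; the cause was not tested. RARA and RXRA have no value on probe sets without shared sequences. RXRA, CRABP2 and CYP26B1 were below 0 with poly-A spike centring alone, and RXRB there and, at -0.018, as the median of its probe sets. Single-array signals near the floor limit RARB, RXRG, ALDH1A2 and CRABP2. No paired analysis was possible because each group holds 1 array.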

Other observations

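Antisense transcripts annotated at 3 members had probe sets of their own. RARB-AS1 read 14.2 in the clone and 257 in the vector control, at least 1.24-fold lower given the floor of 208. RARA-AS1 read 132 in the clone and 137 in the control, and ALDH1A2-AS1 read 8.6 and 27.3, all below the floor. These probe sets were picked for mention after their values were seen.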
